A study of Drosophila melanogaster with 3 samples.

Results

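Of the 9789 peaks in the list that passed the irreproducible discovery rate (IDR) procedure, 2120 had their summit deep inside an intron, and these far intronic peaks of CG2712 occupancy are described here. A summit was far intronic when it lay more than 2000 bp from every annotated transcript start, inside a gene and outside every annotated exon. The data are chromatin immunoprecipitation with sequencing (ChIP-seq) on whole Drosophila melanogaster embryos aged 0 to 16 hours, male and female together. The embryos came from a transgenic line that stably expresses the zinc finger protein CG2712 with GFP at its C terminus, and the DNA was recovered with an antibody against GFP. The labels number 3 biological replicates, which form the only group. The fusion and the antibody are common to all replicates, the collection mixes all tissues and ages of those embryos, and no untagged line was analysed here. Read totals of the libraries were not analysed here, and how deeply each replicate was sequenced is unknown.

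Introns hold most of the transcribed but non-coding DNA of large fly genes, and many enhancers, the short stretches at which transcription factors gather to control a promoter from a distance, lie in them. Developmental regulators and cell adhesion genes tend to have long introns, whereas housekeeping genes such as those for ribosomal proteins are short. A ChIP-seq peak in an intron marks DNA that was recovered with the tagged protein, either because the protein sat on that DNA or because the DNA was held near a place where it sat. It does not say which promoter, if any, the site acts on.

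Among the strongest far intronic peaks, several summits lay in stretches rich in runs of A and T. The sequences below, read from the RefSeq genome (dm6, plus strand), cover 50 bp on each side of the summit for 5 of the strongest far intronic summits, with windows of the same width centred 300 bp to either side of the Kdm2 and Gug summits. They are shown because summits and flanks differed in base composition. Capitals mark runs of at least 6 bases that hold only A or T.
Kdm2 summit chr3R:9057490-9057590: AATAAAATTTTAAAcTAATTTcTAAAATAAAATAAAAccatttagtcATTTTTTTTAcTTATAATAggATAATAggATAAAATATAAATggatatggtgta
Kdm2 flank, lower coordinates chr3R:9057190-9057290: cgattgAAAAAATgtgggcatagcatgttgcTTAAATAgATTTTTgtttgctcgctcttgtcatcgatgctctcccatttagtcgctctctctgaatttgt
Kdm2 flank, higher coordinates chr3R:9057790-9057890: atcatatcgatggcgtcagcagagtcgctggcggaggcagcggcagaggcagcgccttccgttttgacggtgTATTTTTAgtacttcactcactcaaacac
Gug summit chr3L:8458285-8458385: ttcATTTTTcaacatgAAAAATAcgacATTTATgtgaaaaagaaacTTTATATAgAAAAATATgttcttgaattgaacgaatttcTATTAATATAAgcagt
Gug flank, lower coordinates chr3L:8457985-8458085: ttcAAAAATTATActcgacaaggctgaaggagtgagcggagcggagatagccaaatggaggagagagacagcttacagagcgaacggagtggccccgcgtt
Gug flank, higher coordinates chr3L:8458585-8458685: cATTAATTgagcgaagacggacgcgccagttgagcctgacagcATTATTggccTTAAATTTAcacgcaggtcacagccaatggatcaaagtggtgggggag
tara summit chr3R:16236899-16236999: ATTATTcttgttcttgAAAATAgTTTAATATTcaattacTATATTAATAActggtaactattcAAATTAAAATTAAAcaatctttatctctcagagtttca
simj summit chr3L:10682916-10683016: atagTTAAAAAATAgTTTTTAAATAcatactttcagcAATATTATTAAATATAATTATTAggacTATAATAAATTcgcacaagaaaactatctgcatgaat
trx summit chr3R:14283826-14283926: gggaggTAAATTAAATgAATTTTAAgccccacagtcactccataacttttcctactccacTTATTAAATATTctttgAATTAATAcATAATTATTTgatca

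In the Kdm2 summit window 15.8% of bases were G or C, against 39.6% and 53.5% in its 2 flanks. For Gug the summit had 21.8%, against 52.5% and 50.5% in the flanks. The tara and simj summits had 19.8% each, and the trx summit had 28.7%. These 5 were picked after their values were seen, and other strong peaks differed less from a flank: the Tlk summit had 26.7% and 38 bases in such runs, against 35.6% and 34 bases in the flank at lower coordinates.

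Kdm2, which encodes a histone demethylase, held the far intronic peak with the highest pooled signal (3R, 9057220 to 9057875), in the second intron of its canonical transcript and 4249 bp from the nearest start. The authors' signal value, a score per peak, was 5430 in the IDR list, where this peak ranked 45. It ranked 55 in replicate 1, 38 in replicate 2 and 45 in replicate 3. The next was in Tlk (X, 3741962 to 3742547), the gene of the Tousled-like kinase, with a signal of 5056 and ranks of 69, 50 and 54 in the replicates. A peak in the overlapping genes Hr3, CG12912 and CG46321 followed with a signal of 4922. Hr3 encodes a nuclear receptor of the ecdysone response.

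The hosts of the 15 strongest far intronic peaks included genes for chromatin, transcription and signalling proteins. Gug (3L, 8458078 to 8458598; signal 4685) encodes the corepressor Atrophin. The histone methyltransferase gene trx (3R, 14283615 to 14284099; signal 4140), simj (3L, 10682689 to 10683318; signal 3735), which encodes a subunit of a nucleosome-remodelling and deacetylase complex, and the corepressor gene sbb (signal 3734) were also in this set. Genes of signalling pathways were aos, which encodes a secreted inhibitor of the EGF receptor and overlaps CG33158 (3L, 16480329 to 16480815; signal 3958), the Wnt receptor gene fz (3L, 14303825 to 14304274; signal 3561) and the MAP kinase pathway kinase gene Raf (X, 2297509 to 2297936; signal 3230). The other hosts were tara, CG12769, side-V, the nuclear receptor gene Hr4 and grh, which encodes the epidermal transcription factor Grainyhead. All 15 peaks overlapped one of the 9789 strongest peaks in each of the 3 replicates. Their ranks ran from 48 to 212 in replicate 1, from 38 to 310 in replicate 2 and from 45 to 156 in replicate 3.

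The peak in side-V, a gene of the Sidestep family of immunoglobulin-domain proteins, differed from the other 14 in its order across replicates. Its signal was 1350 in replicate 1, 1066 in replicate 2 and 1209 in replicate 3, whereas each of the other 14 had its lowest signal in replicate 1 and its highest in replicate 2. In ranks it stood at 48, 310 and 112. It ranked highest of the 15 in replicate 1, lay 81 bp from an exon end, and at 46.5% its summit window had the highest G and C content of the 15. This contrast was picked out after the values were seen.

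**Figure D1:**
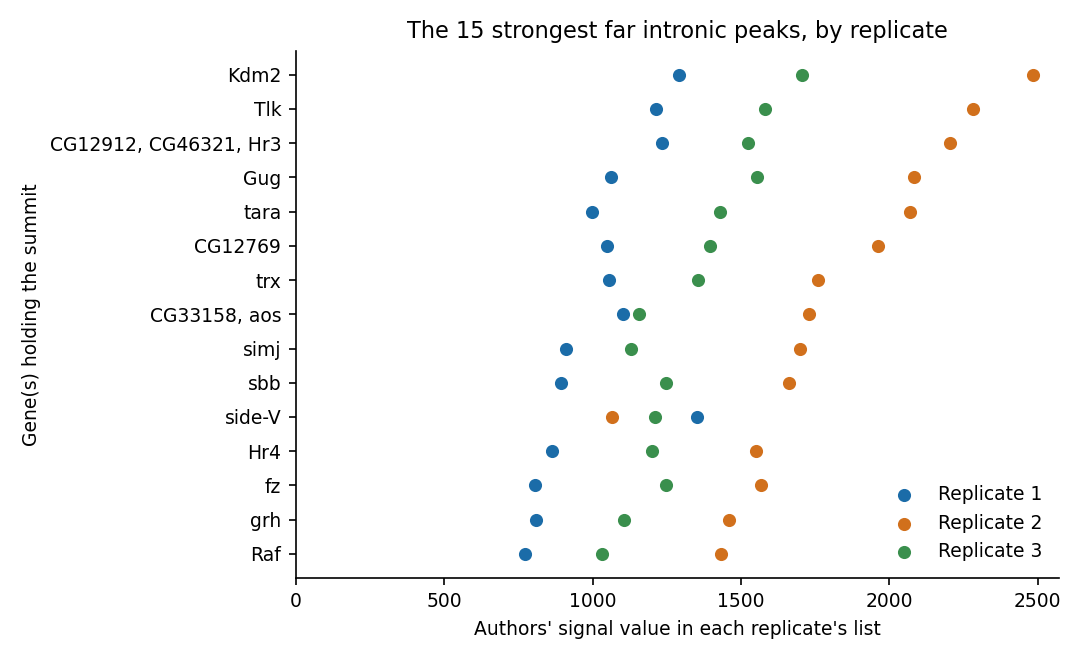
Authors' signal value (horizontal axis) of the 15 strongest far intronic peaks in each replicate's own list (points), ordered from the strongest pooled peak at the top. The Kdm2 peak had 1289 in replicate 1, 2485 in replicate 2 and 1705 in replicate 3; the side-V peak has its highest point in replicate 1.

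Far intronic peaks were common but rarely among the strongest. They made up 21.7% of the IDR list (exact 95% interval 20.8 to 22.5, counting error only). Among each replicate's 9789 strongest peaks the share was 21.3%, 21.9% and 19.97%, a mean of 21.0% ± 0.981 (SD, n = 3). None of the 25 strongest IDR peaks was far intronic (upper exact limit 13.7%), 8 of the 100 strongest were, 61 of the 500 strongest (12.2%) and 157 of the 1000 strongest (15.7%). Down the pooled list of 30000 peaks the share was 19.8% in the 3000 strongest and 33.7% in the last 3000, while promoter peaks, with a summit within 500 bp of a start, went the other way, at 48.2% and 17.0%. Replicate 1 had 17.5% far intronic summits in its 3000 strongest peaks and 35.0% in the last bin. The share was higher at the low end of all 4 lists.

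**Figure D2:**
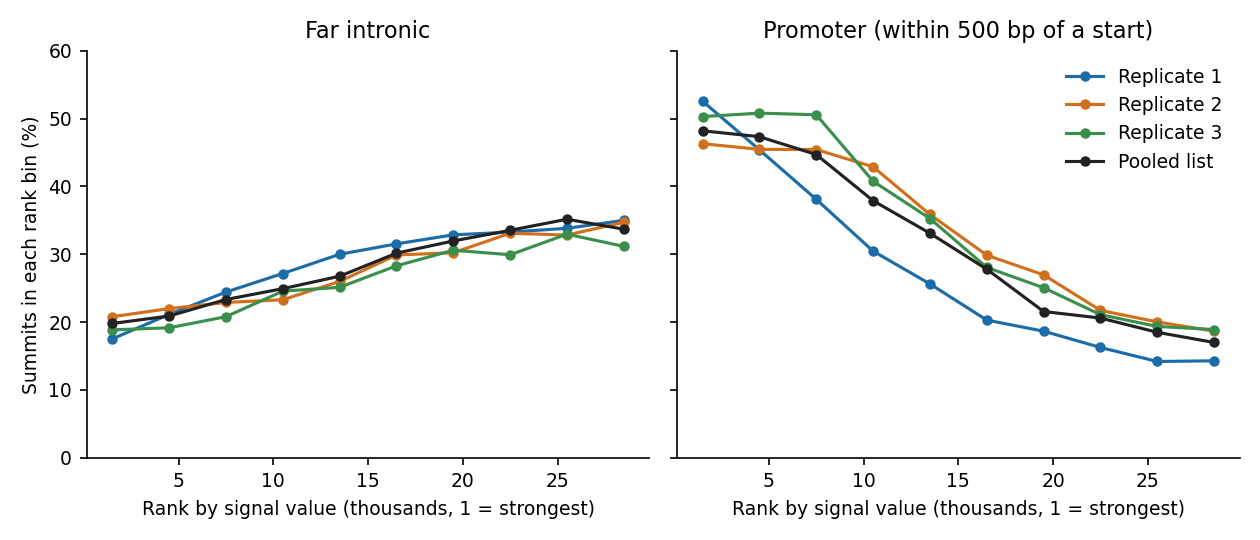
Percentage of summits that were far intronic (left) or at promoters (right) in successive bins of 3000 peaks ranked by signal, for each replicate and the pooled list (lines; the last bin of replicate 3 is slightly smaller). Far intronic shares in the pooled list are 19.8% in the first bin and 33.7% in the last, and promoter shares are 48.2% and 17.0%.

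Deep intronic DNA was less densely occupied than DNA near starts. It takes 30.8% of assembled bases, so the share of summits was 0.684 ± 0.0319 of that of bases over the replicates (SD, n = 3). The IDR list had 50.1 far intronic peaks per Mb, against 105 per Mb of intronic DNA within 2000 bp of a start but beyond 500 bp (near intronic), 247 per Mb at promoters and 35.9 per Mb of intergenic DNA more than 2000 bp from every start (far intergenic). These densities changed when repeat-rich DNA was left out. In 1-Mb bins of which over 30% is soft-masked (written in lower case, the marking of repeats) in the RefSeq genome, 7.36 Mb of far intronic DNA, 17.4% of it, held 1 of the 2120 peaks. Of all 9789 IDR peaks 27 lay in these bins. Without them the density was 60.6 per Mb far inside introns and 55.1 per Mb in far intergenic DNA, and the share of far intronic summits was 0.711 ± 0.0339 of that of bases (SD, n = 3). Annotated transposable elements took 8.19% of far intronic bases and held 8 summits, 0.377% of the 2120. How well short reads could be placed in this DNA was not tested.

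The mean log2 signal of far intronic peaks was below that of peaks nearer starts and close to that of far intergenic peaks. Signals were read at the strongest peak of each replicate that overlapped the IDR peak. The mean log2 signal of far intronic minus promoter peaks was -0.41 in replicate 1, -0.09 in replicate 2 and -0.30 in replicate 3, a mean of -0.27 ± 0.16 (SD, n = 3). It was lower in 3 of 3 replicates (exact two-sided sign-flip permutation p = 0.25, the smallest that 3 replicates allow, so that no comparison here could pass 0.05). In percentile ranks the difference was -0.333, 0.166 and -4.68 points, a mean of -1.62 ± 2.67 (n = 3, exact permutation p = 0.5), so the sign was not shared by all replicates. The ranks put IDR peaks without an overlapping peak in a replicate at the bottom, whereas the log2 means left them out. The measures thus differ in peaks as well as in scale. The difference from near intronic peaks was tighter, at -0.26, -0.22 and -0.22, a mean of -0.23 ± 0.02 (n = 3, exact permutation p = 0.25). From far intergenic peaks it was -0.02, 0.10 and 0.03, a mean of 0.04 ± 0.06 (n = 3, exact permutation p = 0.5), smaller than its spread over replicates. In the IDR list the median signal was 387 for far intronic, 456 for near intronic, 419 for promoter and 398 for far intergenic peaks. Within 500 bp beyond the 2000-bp limit, 197 members had a median of 460.1, and within 500 bp short of it 299 intronic peaks had 420.3.

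Far intronic peaks recurred about as often as IDR peaks as a whole. The IDR list is made from the pool of these same replicates, so much of this overlap was built in. Of the 2120, 1453 (68.5%, exact 95% interval 66.5 to 70.5) overlapped one of the 9789 strongest peaks of every replicate, against 70.7% of all IDR peaks and 68.2% of far intergenic peaks. Another 472 did so in 2 replicates, 179 in 1 and 16 in none. For promoter and near intronic peaks the share in the strongest lists of all 3 replicates was 71.9% and 73.4%. In the whole lists of 30000 peaks, 1995 far intronic peaks (94.1%) were found in all 3 replicates, against 92.7% of all IDR peaks. By replicate 85.1%, 91.2% and 82.3% of far intronic peaks were recovered, against 84.8%, 88.5% and 91.1% of promoter peaks. The difference of -1.95 ± 6.12 percentage points (SD, n = 3, exact permutation p = 1) was smaller than its spread and negative in replicate 3 alone, without which it was 1.51. The difference from near intronic peaks was -2.75 ± 1.58 points (n = 3, exact permutation p = 0.25) and from far intergenic peaks 0.510 ± 4.30 points (n = 3, exact permutation p = 1). Without replicate 2 the last was -1.28.

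Density was lower farther from starts. Per Mb of far intronic DNA at the same distance, the IDR list held 69.3 peaks at 2 to 5 kb (912 peaks), 60.9 at 5 to 10 kb (677 peaks), 45.5 at 10 to 20 kb (395 peaks) and 14.5 beyond 20 kb (136 peaks). Without the repeat-rich bins the same 4 values were 71.4, 63.7, 49.9 and 37.1, so the low value beyond 20 kb moved most. Over replicates those 4 densities were 69.2 ± 2.49, 63.1 ± 2.87, 47.4 ± 4.23 and 35.5 ± 3.18 per Mb (SD, n = 3), and the replicates of neighbouring distances did not overlap. The median far intronic summit was 5686.5 bp from a start and 2788.5 bp from the nearest exon end, and the farthest was 58749 bp from a start. Of the members, 41.1% lay within 2000 bp of another far intronic summit and 75.1% within 10 kb. These include 50 members in intervals that the list gives more than once. The same shares were not computed for other peaks or for scattered positions, so they do not show clustering.

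**Figure D3:**
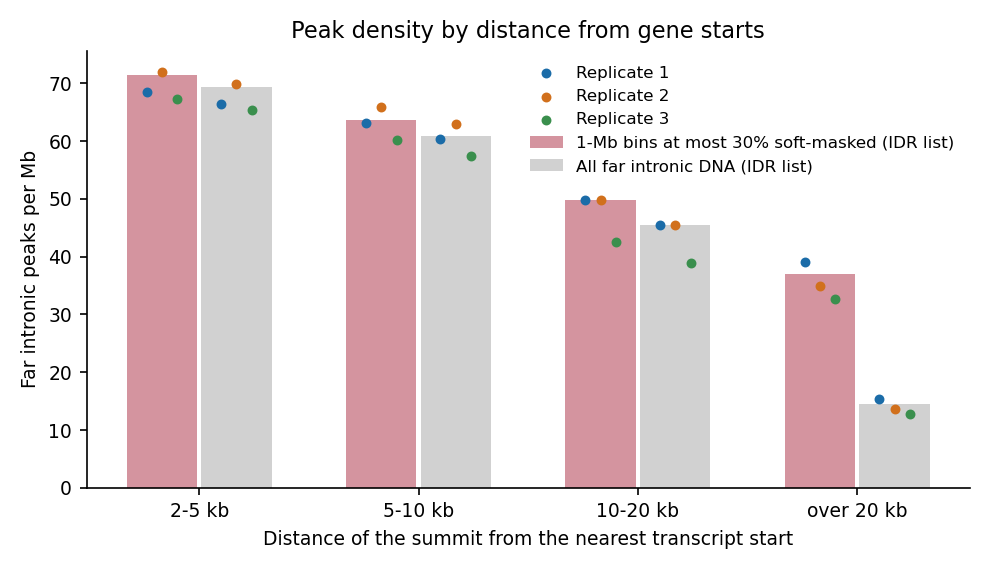
Far intronic peaks per Mb of far intronic DNA (vertical axis) by distance from the nearest transcript start, without 1-Mb bins over 30% soft-masked (left bars) and in all far intronic DNA (right bars). Bars are the IDR list and points the replicates; beyond 20 kb the bars stand at 37.1 and 14.5 per Mb.

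The first intron held more far intronic summits than its share of bases. In the canonical transcript of the host gene, 806 of 2120 summits (38.0%, exact 95% interval 35.9 to 40.1) lay in the first intron, which holds 23.7% of far intronic bases. The replicates' own strongest peaks had 36.8%, 38.5% and 39.2%, which was 14.5 ± 1.21 percentage points above the share of bases (SD, n = 3, higher in 3 of 3, exact permutation p = 0.25). The second intron had 27.3% of summits and 24.7% of bases, and later introns had 24.2% of summits and 43.5% of bases. The other 10.5% of summits and 8.01% of bases lay outside the introns of that canonical transcript. Intron number was not separated from distance to the starts. Without the repeat-rich bins the excess in the first intron was 11.9 ± 1.22 points (n = 3, exact permutation p = 0.25), over 26.3% of bases.

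Across chromosomes the X at first stood out. It had 531 far intronic peaks, 66.3 per Mb, against 48.2 per Mb on the autosomal arms, and the ratio in the replicates was 1.40, 1.33 and 1.24 (mean 1.32 ± 0.0825, SD, n = 3, exact permutation p = 0.25 on the log2 ratio). Without the repeat-rich bins, which hold more of the autosomal than of the X far intronic DNA, the ratio was 1.13, 1.07 and 0.999 (mean 1.07 ± 0.0666, n = 3, exact permutation p = 0.5), and the excess was about the size of its spread. The arm densities were then 69.3 per Mb on 3L, 66.5 on X, 57.9 on 2R, 56.7 on 3R and 55.5 on 2L. Chromosome 4 had 2 peaks in 0.445 Mb of far intronic DNA, 4.49 per Mb, and the Y had none.

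The summits were poor in G and C. Within 50 bp of far intronic summits 30.7% of bases were G or C, against 44.8% in windows of the same width centred 300 bp to either side. By replicate the summits had 30.1%, 31.6% and 32.3% and the flanks 45.4%, 44.6% and 44.4%, a difference of -13.5 ± 1.70 percentage points (SD, n = 3, lower in 3 of 3, exact permutation p = 0.25). Windows at every far intronic position averaged 40.1%, so the summits were below it and the flanks above it. A summit at least 10 points below its flanks was found for 1462 of 2120 far intronic peaks (69.0%, exact 95% interval 66.9 to 70.9), against 58.2% of all IDR peaks and 18.4% of every far intronic position taken as if it were a summit. The 15 strongest peaks were all below their flanks, with 15.8% to 46.5% G and C at the summit and 38.6% to 52.5% beside it.

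How this dip compared with that of promoters turned on where the flanks lay. With flanks at 300 bp the summit minus flank value of far intronic peaks was lower than that of promoter peaks by a difference of -4.89 ± 0.399 points and than that of near intronic peaks by -2.02 ± 0.474 points, and it was 1.96 ± 1.00 points higher than that of far intergenic peaks (SD, n = 3, same sign in 3 of 3 replicates each, exact permutation p = 0.25 each). With flanks at 600 bp the value was -9.74 ± 1.24 points for far intronic and -10.5 ± 1.28 points for promoter peaks, and the difference was positive in 3 of 3 replicates (0.78 ± 0.085 points, n = 3, exact permutation p = 0.25), as it was at 800 bp (1.39 ± 0.211 points). At 600 bp the difference from near intronic peaks was -0.22 ± 0.394 points (n = 3, exact permutation p = 0.5), within its spread, and that from far intergenic peaks kept its sign at 1.19 ± 0.663 points (n = 3, exact permutation p = 0.25). The summits themselves had 31.3% ± 1.14 G and C far inside introns and 34.9% ± 1.21 at promoters (SD, n = 3). Stronger peaks had less G and C. In each replicate's own ranking, the strongest 10% of far intronic peaks had 28.1% ± 0.434 G and C at the summit and the weakest 10% had 34.1% ± 2.10, a difference of -6.03 ± 1.68 points (SD, n = 3, exact permutation p = 0.25). Of the strongest 10% of the IDR members all were recovered in all 3 replicates, and of the weakest 10%, 8.02% were. Strength and the recovery limit both rest on signal from these same replicates, so this last contrast was largely built in. Whether base composition changed how well fragments were recovered was not tested.

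**Figure D4:**
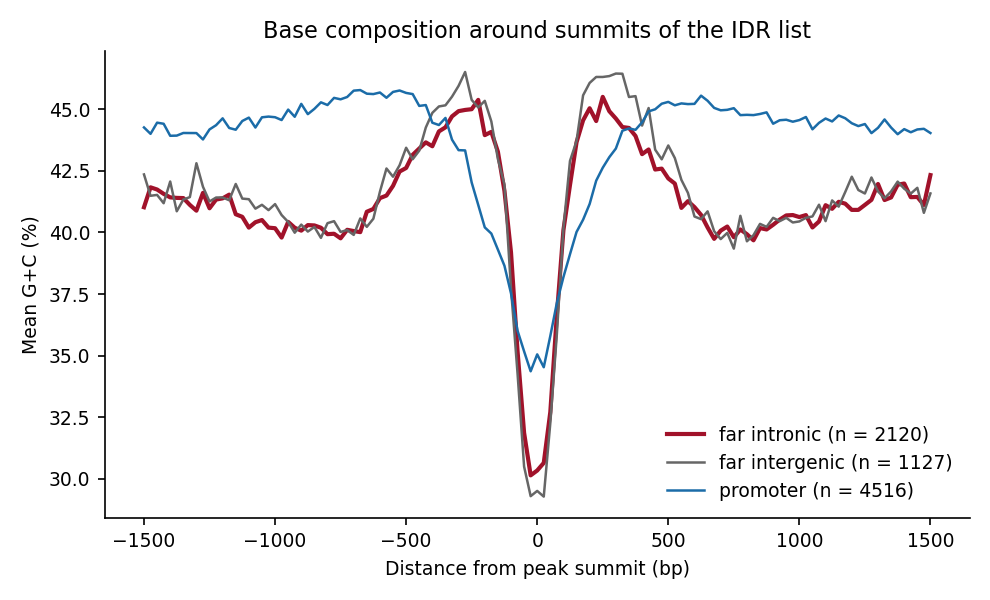
Mean percentage of G and C (vertical axis, not starting at 0) in 25-bp windows by distance from the summit for far intronic, far intergenic and promoter peaks of the IDR list (lines). The far intronic line is at 30.3% at the summit, 44.9% at 300 bp to one side and 44.6% to the other, and 39.9% at 800 bp. The promoter line is higher than the far intronic line at the summit and at 800 bp.

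Longer runs of A and T accompanied the low G and C. The median longest run of only A or T was 11 bases at far intronic summits and 7 in their flanks, and runs of 10 or more were present at 59.9% of summits and 26.1% of flank windows. This was shared with other classes. Such runs were at 63.3% of far intergenic summits and 24.4% of their flanks, and at 53.1% and 28.1% for promoter peaks. The 20 sequences of 8 bases that were most in excess at far intronic summits on 2L and 3L held only A and T. On 3R and X, which had not been used to choose them, all 20 were more frequent at summits than in flanks, by 2.22 to 6.35 times. Sequences of only A and T would be in excess wherever summits are poorer in G and C than flanks. The count on these arms therefore could not separate these sequences from base composition. AAAATATT, counted on both strands, was at 82 of 1008 far intronic summits there (8.13%), against 1.64% of flank windows, and at 6.94% of promoter summits against 2.44% of promoter flanks.

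Each listed sequence bound by a known fly factor was at 3.96% of far intronic summits or fewer. A list of 19 sequences, which also held an A run and a CA repeat, was searched on both strands within 50 bp. Of the 19, 5 (26.3%) were at least 1.5 times as frequent at far intronic summits as in flanks in each of the 3 replicates. The A run was at 7.36% of summits and 7.22% of flanks. The commonest factor sequences did not meet the rule. The E-box CATATG was at 84 summits (3.96%, against 3.56% of flanks). AP-1 was at 69 (3.25% against 2.36%) and TCF at 49 (2.31% against 1.58%). Shares expected from the length of each sequence were not computed. The sequence AGATAAG, which fly GATA factors read, was at 41 of 2120 summits, 1.93%, against 0.849% of flanks. The Su(Hw) insulator sequence (GCATACTT) was at 16 summits, 0.755% against 0.189%. CTCF (AGGTGGCG) and Motif 1 (GGTCACAC) were at 7 summits each, 0.330%, against 0.118% and 0.189% of flanks. DRE (TATCGATA) was at 4 summits, 0.189% against 0.0708%. DRE and Motif 1, both core promoter elements, were at 5.29% and 3.37% of promoter summits. With flanks taken at 600 bp, Su(Hw) and Motif 1 remained in excess by this rule, whereas Motif 1 was lost with 1 peak per interval and in the stronger 50% of the lists, and the GATA sequence with a distance of 1000 bp and with protein-coding starts alone. Su(Hw) met the rule in every setting tried. A further 5 were at least 1.5 times less frequent at summits in each replicate, namely GAGA, the E-box CAGCTG, Su(H), Pho and the CA repeat, which was at 0.943% of summits and 4.25% of flanks. All 5 hold G or C, and summits are poorer in G and C than flanks. These counts therefore could not separate the 5 sequences from base composition. The letters of the rest were GAGAGAG for the GAGA factor, CAGGTAG for Zelda, CATCNCTA for Motif 7, CATATG for another E-box, GTGGGAA for Su(H), AACCNGTT for Grainyhead, TGANTCA for AP-1, CTTTGAT for TCF, CTATTTATA for Mef2, CACTTGA for Tinman, GCCATTT for Pho, CACACACA for the CA repeat and AAAAAAAA for the A run. A match describes these letters, and no match says nothing of a factor.

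The 2120 peaks lay in 780 host genes, of which 761 are protein-coding. Among 2466 genes with at least 1000 far intronic bases, 792 (32.1%) held at least 1 far intronic peak, and with each replicate's own strongest peaks the number was 836, 780 and 735. Of the 792, 337 held 1 peak, 138 held 5 or more and 29 held 10 or more. The most were in kirre (X, 2740384 to 3134532), which encodes an immunoglobulin-domain adhesion protein of muscle founder cells. It had 35 in the IDR list and 35, 31 and 29 in the replicates. The gene of the Hox cofactor Homothorax, hth (3R, 10507561 to 10639568), had 18 and then 16, 20 and 20. Next were sbb with 16 and cv-c with 15. The genes fz and fz2, which encode Frizzled receptors for Wnt ligands, also had 15 each. CG43658 had 14, and the long noncoding RNA genes lncRNA:CR44357, lncRNA:CR32773 and lncRNA:CR44999 on the X had 17, 15 and 13. Per 100 kb of far intronic DNA, sbb had 34.2, cv-c 22.8, fz2 20.8, fz 18.2, hth 16.0 and kirre 12.2. The lowest of the 10 genes with most peaks was lncRNA:CR32773, with 8.89. All 2466 genes together had 5.06, and protein-coding genes outside the repeat-rich bins had 6.02. The 10 genes were picked for their number of peaks, which favours high densities. Their values therefore cannot show that such genes are enriched.

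Long introns did not always carry peaks. Of 167 protein-coding genes with at least 50 kb of far intronic DNA, 100 held a far intronic IDR peak and 67 did not, and for 55 of these no replicate's strongest list had one either. Outside the repeat-rich bins the numbers were 140 genes, 100 with a peak and 40 without, of which 29 had none in any list. These included bru3 (244 kb of far intronic DNA), which encodes an RNA-binding protein, Lar (118 kb), a receptor tyrosine phosphatase gene, the teneurin gene Ten-m (83.8 kb), dpr8 (128 kb), whose product is a neuronal immunoglobulin-domain protein, the acetylcholine receptor subunit gene nAChRalpha3 (75.1 kb) and the sodium channel gene para (53.8 kb). The gene fru (91.3 kb), a regulator of male courtship circuits, had no IDR peak, 3 in replicate 1 and 0 in replicates 2 and 3. These genes were chosen for naming after their values were seen.

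Genes with a far intronic peak often had a peak at their own start. Of 766 protein-coding genes with one, 504 (65.8%) also had an IDR summit within 500 bp of one of their own starts, against 552 of 1618 (34.1%) without one. In the replicates' strongest lists this was 64.3% ± 6.02 and 35.0% ± 1.98, a difference of 29.3 ± 7.53 percentage points (SD, n = 3, higher in 3 of 3, exact permutation p = 0.25). Among genes with 1 to 5 kb of far intronic DNA the values were 63.6% and 40.3%, and among those with at least 50 kb outside the repeat-rich bins 64 of 100 and 6 of 40. The gap was present in both.

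Signalling genes held the densest far intronic peaks of the lists examined. Of 33 eligible genes of the Notch, Wnt, Hedgehog, EGF receptor, FGF receptor and Dpp pathways, 27 had a far intronic peak, with 17.6 peaks per 100 kb in the IDR list and 16.8 ± 1.76 in the replicates (SD, n = 3), against 32.1% of all eligible genes and 5.06 per 100 kb (6.02 for protein-coding genes outside the repeat-rich bins). The strongest were those in aos, fz and nkd, an antagonist of Wnt signalling. nkd had 7 peaks, and 4, 7 and 5 in the replicates, with a highest signal of 2572. Eligible genes had at least 1000 far intronic bases.

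Lists of chromatin regulators and transcription factors had 8.41 to 11.3 far intronic peaks per 100 kb. The density was 5.06 over all eligible genes and 6.02 for protein-coding genes outside the repeat-rich bins. Of all eligible genes 32.1% had a peak. In the list of chromatin and BTB zinc finger regulators, 8 of 15 eligible genes had a peak (11.3 per 100 kb), among them trx with 5 peaks and Kdm2 and the Polycomb group gene Psc with 2 each. Of the Hox genes 6 of 8 had one (9.26 per 100 kb). Antp had 12, and 11, 13 and 12 in the replicates, pb had 3, and Abd-B had 1, with 4, 2 and 3 in the replicates. Among nuclear receptor and ecdysone response genes 8 of 17 had one (9.13 per 100 kb), including Hr3 with 3, Hr4 with 8 and Eip75B with 9. Among neural and patterning transcription factors 13 of 26 had one (8.41 per 100 kb), with grh, hth and ush, a cofactor of GATA factors, strongest. Peaks were uneven within these lists. The median density per eligible gene was 11.8 per 100 kb for chromatin regulators and 6.29 for Hox genes. It was 0 for nuclear receptor and ecdysone genes, 1.44 for neural and patterning factors and 0 over all eligible genes.

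Genes of cell shape, muscle and axon guidance had 6.17 to 8.54 far intronic peaks per 100 kb. Beside these, all eligible genes had 5.06 per 100 kb, with a peak in 32.1% of them. Protein-coding genes outside the repeat-rich bins had 6.02 per 100 kb. In the actin and cell shape list 15 of 23 eligible genes had a peak (8.54 per 100 kb), and pyd, which encodes a junction protein, had 10, mbc, an activator of Rac, 3 and the tyrosine kinase gene Abl 4. In the muscle list 6 of 18 did (33.3%, against 32.1% of all eligible genes), with 26 peaks and 8.17 per 100 kb. The integrin gene mew had 11 of the 26, the transcription factor gene Mef2 4 and the dystrophin gene Dys 3. In the axon guidance and adhesion list 24 of 35 did (6.17 per 100 kb, close to the 6.02 above). Of its 122 peaks 35 were in kirre, 10 in Sema1a and 7 in NetA, which encode a semaphorin and a netrin.

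Ion channel genes were at the low end, against a peak in 32.1% of all eligible genes and 5.06 per 100 kb over them. Of 27 eligible genes for ion channels and transmitter receptors, 5 had a far intronic peak, 8 peaks in 896 kb or 0.893 per 100 kb (0.930 ± 0.359 over replicates, SD, n = 3). The calcium channel subunit gene Ca-beta held 4 of the 8, and the potassium channel gene Shal and the gene Ih of a hyperpolarisation-activated channel held 1 each. RNA-binding regulators combined a high share of genes with a low density: 15 of 18 had a peak, at 3.86 per 100 kb, with 9 in Rbfox1 and 2 each in how and mbl. None of the 92 cytosolic ribosomal protein genes and 1 of 73 mitochondrial ones had enough far intronic DNA to be eligible, and that 1 held no peak. The lists differ in gene length, and no test of the lists was made.

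**Figure D5:**
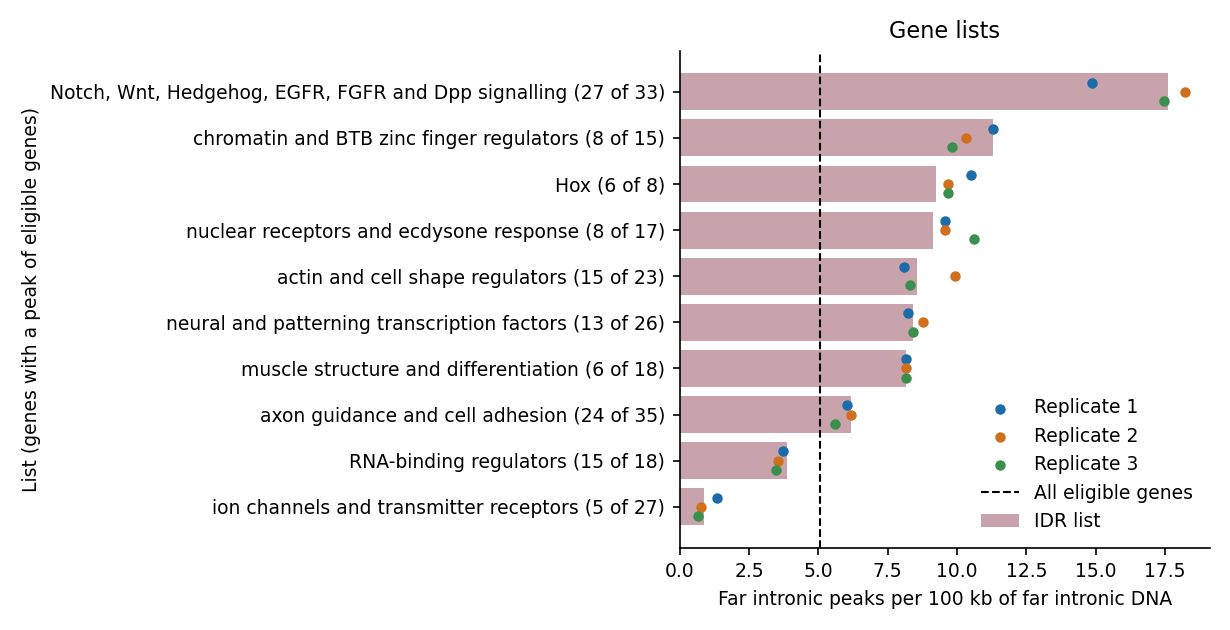
Far intronic peaks per 100 kb of far intronic DNA (horizontal axis) for lists with at least 5 eligible genes, with the number of genes that held a peak in parentheses. Bars are the IDR list, points the replicates and the dashed line all eligible genes; the signalling list stands at 17.6 and the ion channel list at 0.893, on either side of 5.06.

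CG2712 itself (X, 2732469 to 2734402) has no far intronic DNA and no IDR summit inside it; the nearest was 153 bp outside the gene.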

How the data were processed

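The deposited peak lists of the 3 CG2712-GFP embryo replicates, the pooled list and the IDR list were used. Per the labels, reads were placed on build dm6. Per the text deposited with the lists, each replicate's peaks were called against 1 control file, which is not described further there (an input and a mock immunoprecipitation cannot be told apart), and pooling all 3 gave the pooled list, of which the IDR list is made. Which caller, aligner and IDR threshold were used is not given in the sources used here. For ranking and comparing peaks, the authors' signal value (a score per peak) was used. The deposited −log10 q column was examined only for its range, and the summit offset deposited by the authors placed each summit. The IDR list equals the 9789 strongest peaks of the pooled list, and the other lists end at 30000 peaks by a limit on length.

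Starts, exons and genes came from Ensembl 115 without transposable elements. Sequence and its lower-case marking came from the RefSeq genome of the same assembly, in which every peak ended within its chromosome. A host was the shortest protein-coding gene around a summit, else the shortest gene. Each replicate's 9789 strongest peaks gave the replicate values. Replicates were compared by an exact two-sided sign-flip permutation test over 3 values, and shares have exact binomial intervals, which cover counting error only. The replicates are numbered as biological in the labels; from which separate collections they came is not stated there. Genes were named as hosts of the 15 strongest members, the 10 genes with most members and up to 3 genes per list by strongest peak, besides CG2712; the text marks others. The members and lists were chosen with earlier results of these data known, and base composition, the X, own starts, long genes without peaks and soft-masked bins were added after seeing the values. The symbols Dl and nos were matched by hand to the names that the annotation uses. Scripts were tested on simulated peak lists. SciPy 1.17.1, pandas 2.3.3 and NumPy 2.4.6 ran under Python 3.11.15, with matplotlib 3.10.9 for the figures.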

Additional observations from a re-analysis of the deposited data

How the results depend on the processing

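The mean share of far intronic summits over replicates (21.0%) was 27.9% with a distance of 1000 bp, 12.02% with 5000 bp, 22.6% with protein-coding starts alone and 19.6% in the stronger 50% of the lists, and 20.6% to 21.6% when each replicate was left out. Its ratio to the share of bases (0.684) was 0.778 with 1000 bp, 0.566 with 5000 bp and 0.638 in the stronger 50%, and 0.670 to 0.701 without 1 replicate. The log2 signal difference from far intergenic peaks was -0.012 at 5000 bp. The recovery difference from promoter peaks was 0.464 points in the stronger 50% and 0.975 points in the whole replicate lists, and -4.27 to 1.51 without 1 replicate; that from far intergenic peaks was -1.28 to 2.89 without 1 replicate. Flanks at 600 bp gave 2 known sequences in excess in place of 5. Genes with a far intronic peak (792) numbered 466 at 5000 bp and 524 in the stronger 50%. The causes were not tested, except that fewer peaks and less DNA enter the stronger 50% and the 5000 bp rule. The difference in the G and C dip from promoter peaks (-4.89 points with flanks at 300 bp) was 0.78 with flanks at 600 bp and 1.39 at 800 bp. The X ratio, 0.40 on the log2 scale, was 0.09 without the soft-masked bins. No paired analysis was possible because there was 1 group, with no second group to pair by replicate number; differences between classes of peaks were taken within each replicate. Depth is unknown, so no limit from it can be given.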
